A study of Mus musculus with 2 samples.

Results

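The Notch ligand genes and their modifiers are 8 of the 21951 genes and transgene sequences counted in this library. They comprise the ligand genes Dll1, Dll4, Jag1 and Jag2, the fringe glycosyltransferase genes Lfng, Mfng and Rfng, and the ligand ubiquitin ligase gene Mib1. They were chosen by name for their role, by a rule that uses no measured level. Their levels were read in 2059 Cdh5-positive cells of 6 hashtag groups and, apart from these groups, in cells gated by the counts of marker genes among all 14350 barcodes that passed the filters. Cdh5 encodes VE-cadherin, the junction protein that defines endothelial cells (ECs). A count here is a unique molecular identifier (UMI), which stands for 1 captured transcript, and a level is given in CPM, the summed UMIs of a gene per 1000000 gene UMIs of the same cells.

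The study sorted ECs from the hearts and livers of C57BL/6 pups of 6 to 7 days of age, which had received 40 mg/kg of 4-hydroxytamoxifen at postnatal day 3 and were processed 3 days later. The iSuRe-HadCre groups carried Cdh5-CreERT2, a tamoxifen-inducible Cre under an endothelial promoter, and the iSuRe-HadCre allele (spelled iHadSuRe-Cre in the genotype label), which makes Cre for a limited time before its MbTomato reporter comes on. The iSuRe-Cre groups carried Cdh5-CreERT2 and iSuRe-Cre, which keeps Cre and the reporter on together. Notch1 was the floxed gene that the study followed by single-cell RNA-seq, but the labels name no floxed allele for any group and no allele at all for the 2 control groups. The sort took CD31+ MbTomato+ cells according to the protocol, while the design text names sorting by the presence or the absence of Tomato. Each group was 1 hashtag in 1 droplet library, and the number of pups behind it is not given in the sources used here. There was therefore no replicate, and no difference below was tested. Values in parentheses after a level or a ratio are exact 95% intervals for the UMIs counted, and they cover counting error only.

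Notch receptors are cut and release their intracellular part to the nucleus, where it joins the DNA-binding protein RBPJ, after a ligand on a neighbouring cell pulls on them. Dll1, Dll4, Jag1 and Jag2 are the canonical ligands of mammals. The fringe enzymes extend sugars on the receptor, and with Lfng or Mfng it favours Delta-like over Jagged ligands. Mib1 ubiquitinates ligands, which start the pull through their endocytosis, and in blood vessels Dll4 is known for its part in arteries and in the tip cells of sprouts.

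Dll4 and Jag1 were the ligand genes that were lower than control by 2-fold or more in both iSuRe-Cre groups. The Lfng window was the only member window with a match to the RBPJ motif. The sequences upstream of Dll4, Jag1 and Lfng are therefore given here. They run 5′ to 3′ on the coding strand, from RefSeq on GRCm38.p6, and end before the first annotated transcribed base. Capitals mark the RBPJ motif GTGGGAA and the E-box CACGTG, which share bases in the Lfng sequence. The Dll4 sequence shown lies at chr2:119325534-119325783 on the plus strand, the Jag1 sequence at chr2:137116645-137116770 on the minus strand, and the Lfng sequence at chr5:140607091-140607319 on the plus strand.
Dll4: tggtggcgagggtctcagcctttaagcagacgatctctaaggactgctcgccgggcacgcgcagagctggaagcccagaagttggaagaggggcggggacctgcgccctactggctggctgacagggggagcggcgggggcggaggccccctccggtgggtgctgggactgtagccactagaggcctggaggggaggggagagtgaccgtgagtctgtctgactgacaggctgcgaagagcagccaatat
Jag1: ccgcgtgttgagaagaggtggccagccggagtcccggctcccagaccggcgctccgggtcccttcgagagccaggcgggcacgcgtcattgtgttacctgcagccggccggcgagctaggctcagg
Lfng: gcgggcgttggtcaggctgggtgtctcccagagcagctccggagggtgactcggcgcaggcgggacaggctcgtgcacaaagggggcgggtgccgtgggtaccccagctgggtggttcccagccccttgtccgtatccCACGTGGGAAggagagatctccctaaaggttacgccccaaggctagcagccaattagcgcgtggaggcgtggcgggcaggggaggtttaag

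Both motifs were searched on both strands of windows that run from 250 bases before to 50 bases after a transcription start. RefSeq windows were matched for 6 of the 8 members, Dll1 with 2 starts and Dll4, Jag1, Jag2, Lfng and Rfng with 1 each. In the Lfng sequence the E-box filled bases 139 to 144 and the RBPJ motif bases 142 to 148, counted from the 5′ end. The RBPJ motif stood in 1 of the 7 member windows and in 6.38% of all 32851 windows, and the E-box in 1 of 7 and in 7.15%. A match is a run of letters and does not show binding, and a window without one holds no more information than that. The member windows were rich in G and C, with 55.7% in Jag1 and 86% in Jag2 as the extremes, against a median of 52.7% over all windows. Their CpG counts ran from 15 in a Dll1 window to 63 in the Jag2 window, against a median of 7. In GRCm38 the annotation places Dll1 (ENSMUSG00000014773) at chr17:15367354-15376872 on the minus strand, Dll4 (ENSMUSG00000027314) at chr2:119325784-119335962 on the plus strand, Jag1 (ENSMUSG00000027276) at chr2:137081456-137116644 on the minus strand and Jag2 (ENSMUSG00000002799) at chr12:112907819-112929776 on the minus strand. The fringe genes are Lfng (ENSMUSG00000029570) at chr5:140607320-140615545 on the plus strand, Mfng (ENSMUSG00000018169) at chr15:78755882-78773475 on the minus strand and Rfng (ENSMUSG00000025158) at chr11:120780746-120784207 on the minus strand.

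The floxed gene was low in all 4 groups with an iSuRe allele. Notch1 stood at 137 CPM in control, 23.5 with iSuRe-HadCre and 12.9 with iSuRe-Cre in heart, and at 143, 33.5 and 21.7 in liver. The endothelial markers were present, since Cdh5, by which the cells were chosen, lay between 680 and 1306 CPM and Pecam1 between 451 and 842 CPM in the 6 groups. The groups held 61 to 903 cells and 838074 to 10253165 gene UMIs, with medians of 7392 to 16398 UMIs per cell. Control liver and iSuRe-HadCre liver were the smallest groups, at 61 and 84 cells, and iSuRe-Cre heart was the deepest per cell. The share of free RNA was estimated in hearts from the Alb and Apoa1 list, genes of hepatocytes. In livers it came from the Tnnt2 and Myh6 list, genes of heart muscle. The estimates were 2.56%, 1.92% and 13.7% of the UMIs of control, iSuRe-HadCre and iSuRe-Cre heart, and 8.56%, 23.0% and 14.7% in liver. They depend on the list. In iSuRe-HadCre liver the Alb and Apoa1 list summed to 53.1 CPM, against 3381 CPM in free RNA. In iSuRe-Cre heart a list of neutrophil genes summed to 35.3 CPM, against 1909 CPM in free RNA. A list of 5 lymphatic EC markers summed to 142 CPM in iSuRe-Cre heart and 250.1 in iSuRe-Cre liver, with a UMI of all 5, and to 11.8 to 33.5 CPM in the other 4 groups, with a UMI of 2 to 4. Its level in free RNA was 117 CPM. The list that begins with Ngp and Camp, genes of neutrophil granules, summed to 9906 CPM in control, 3955 with iSuRe-HadCre and 5420 with iSuRe-Cre in liver, and to 35.3 to 169.8 CPM in the hearts. The part of these lists in the results below was not tested. In summed counts such as these, fewer cells that use a gene and fewer transcripts per cell cannot be told apart.

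Dll4, the Delta-like ligand of arteries and sprouts, was lower with iSuRe-Cre than in control cells of both organs, and its level with iSuRe-HadCre overlapped that of control. In heart it measured 44.4 (37.2 to 52.6) CPM in control, 45.7 (38.7 to 53.6) with iSuRe-HadCre and 20.0 (17.0 to 23.2) with iSuRe-Cre. In liver it measured 46.5 (33.1 to 63.6) CPM in control, 37.0 (25.3 to 52.2) with iSuRe-HadCre and 17.6 (15.1 to 20.3) with iSuRe-Cre. The 4 groups without iSuRe-Cre overlapped one another in their intervals, and both iSuRe-Cre groups lay below all 4 and overlapped each other. The ratio of iSuRe-Cre to control was 0.449 (0.356 to 0.568) in heart and 0.377 (0.266 to 0.548) in liver, while that of iSuRe-HadCre to control was 1.03 (0.811 to 1.31) in heart and 0.794 (0.482 to 1.30) in liver.

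A Dll4 UMI was found in 36.1% of control, 32.3% of iSuRe-HadCre and 28.1% of iSuRe-Cre heart cells, at medians of 9086, 7392 and 16398 UMIs per cell. With every cell thinned to 2000 UMIs, these shares became 10.2%, 10.2% and 4.06%. The iSuRe-Cre cells, which were the deepest, had the lowest share both before and after thinning. In Col2a1 cells, which carry cartilage collagen and are not endothelial, 0.513% held a Dll4 UMI at a median of 17109 UMIs, and 0.0519% after thinning. In liver the shares were 34.4%, 22.6% and 16.2% in control, iSuRe-HadCre and iSuRe-Cre cells, and 11.7%, 8.32% and 4.02% after thinning.

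Jag1, a Jagged ligand of arterial endothelium and smooth muscle, was likewise lowest with iSuRe-Cre in each organ. In heart it stood at 53.3 (45.4 to 62.2) CPM in control, 47.8 (40.7 to 55.9) with iSuRe-HadCre and 22.0 (18.9 to 25.4) with iSuRe-Cre. In liver it stood at 75.2 (57.8 to 96.2) CPM in control, 68.1 (51.9 to 87.9) with iSuRe-HadCre and 30.3 (27.1 to 33.9) with iSuRe-Cre. The intervals of both iSuRe-Cre groups did not overlap those of the other groups, which overlapped within each organ. Relative to control, Jag1 with iSuRe-Cre was at 0.412 (0.332 to 0.513) in heart and 0.404 (0.307 to 0.538) in liver, and with iSuRe-HadCre at 0.897 (0.716 to 1.12) in heart and 0.906 (0.624 to 1.31) in liver. The level of iSuRe-Cre heart was close to that of Jag1 in free RNA, 21.7 CPM. A Jag1 UMI was found in 31.0% of control, 21.9% of iSuRe-HadCre and 19.0% of iSuRe-Cre heart cells. After thinning, these shares became 11.5%, 8.08% and 3.95%. In liver they were 39.3%, 33.3% and 20.0%, and 14.0%, 11.3% and 5.80% after thinning. As a mean of per-cell levels, Jag1 with iSuRe-HadCre was at 0.711 of control heart, just below the interval above. Over 13 alternatives this ratio ran from 0.690 to 1.00, so its closeness to control depended on the measure and the cells used.

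Jag2, the other Jagged ligand, measured 51.3 (43.6 to 60.1) CPM in control, 62.5 (54.3 to 71.7) with iSuRe-HadCre and 35.3 (31.3 to 39.5) with iSuRe-Cre in heart. The liver levels were 32.2 (21.2 to 46.9) CPM in control, 34.6 (23.4 to 49.5) with iSuRe-HadCre and 9.95 (8.11 to 12.1) with iSuRe-Cre. iSuRe-Cre liver was the lowest group and stood apart from the other 5. Its Jag2 level was below that of free RNA, 13.0 CPM. The ratio of iSuRe-Cre to control was 0.309 (0.200 to 0.491) in liver and 0.687 (0.564 to 0.839) in heart, where it did not pass 2-fold. Whether the ratio differed between the organs was not tested. The 4 ligand genes summed to 158 CPM in control, 177 with iSuRe-HadCre and 90.2 with iSuRe-Cre in heart, and to 171, 181 and 80.6 CPM in liver.

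Dll1, a Delta-like ligand with a part in arterial identity, was highest in the iSuRe-HadCre group of each organ. In heart its level was 8.56 (5.59 to 12.5) CPM in control, 20.4 (15.9 to 25.9) with iSuRe-HadCre and 13.0 (10.7 to 15.7) with iSuRe-Cre. In liver its level was 16.7 (9.13 to 28.0) CPM in control, 41.6 (29.1 to 57.5) with iSuRe-HadCre and 22.7 (19.9 to 25.8) with iSuRe-Cre. Relative to control, iSuRe-HadCre was at 2.39 (1.50 to 3.91) in heart and 2.49 (1.31 to 4.99) in liver, and iSuRe-Cre at 1.52 (0.985 to 2.43) in heart and 1.36 (0.795 to 2.53) in liver. These sums rest on few molecules, with 26 UMIs in control heart and 14 in control liver, of which the 5 highest cells held 57.7% and 64.3%. Of the Dll1 UMIs with iSuRe-HadCre, the 5 highest cells held 39.7% in heart and 50% in liver. Marker lists of other cell types differed between the groups too, in the order of Dll1 in heart but not in liver. The Col2a1 list of cartilage genes summed to 13.2 CPM in control, 194 with iSuRe-HadCre and 44.6 with iSuRe-Cre in heart, and to 147, 442 and 72.9 in liver. The Krt5 and Krt14 list of epithelial genes summed to 37.2, 172 and 84.2 in heart and 249, 122 and 82.6 in liver. Cells gated by these genes held Dll1 at 0.265 CPM for Col2a1 and 7.97 for Krt5 and Krt14, below its level in all 6 groups, and the part of these lists in the Dll1 ratios was not tested.

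**Figure D1:**
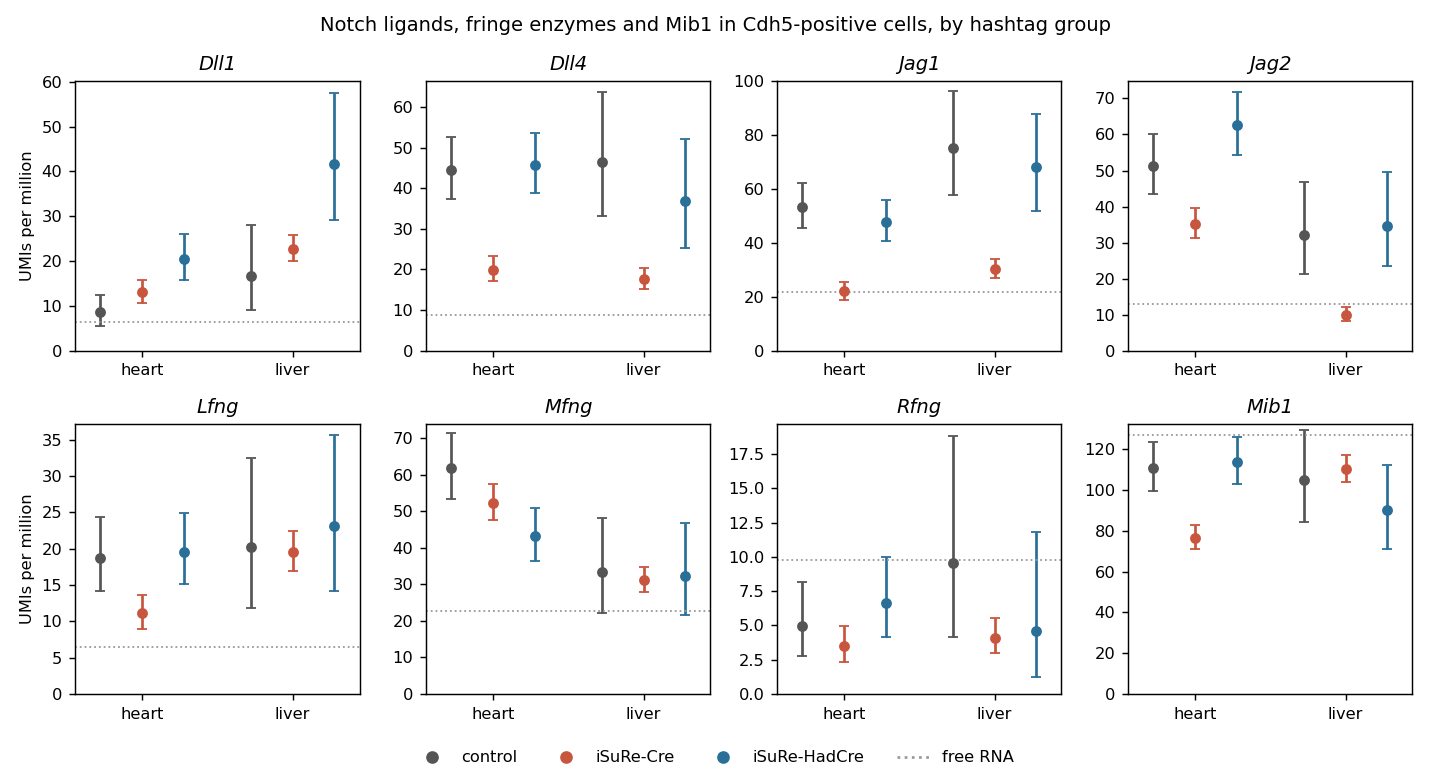
Levels of the 8 genes in CPM (vertical axis, from 0) in Cdh5-positive cells of the 6 hashtag groups, heart at the left and liver at the right of each panel, with exact 95% counting intervals as bars and the free RNA level as a dotted line. Dll4 and Jag1 are lowest in iSuRe-Cre heart (20.0 and 22.0) and iSuRe-Cre liver (17.6 and 30.3), while Mib1 stays between 76.7 and 114.

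No fringe gene with enough UMIs passed 2-fold from control in heart. Mfng, the fringe enzyme known from endothelium and blood cells, measured 61.9 (53.3 to 71.4) CPM in control, 43.3 (36.5 to 51.0) with iSuRe-HadCre and 52.3 (47.6 to 57.5) with iSuRe-Cre in heart. The liver groups lay at 33.4, 32.3 and 31.2 CPM in the same order and overlapped. In heart iSuRe-HadCre was the lowest group, at 0.700 (0.559 to 0.874) of control, while iSuRe-Cre was at 0.846 (0.712 to 1.01). Of the members with enough UMIs, Mfng was the only one below control by more than counting error in iSuRe-HadCre heart, and the difference between the alleles was 0.827 (0.681 to 1.00) as a ratio of iSuRe-HadCre to iSuRe-Cre.

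Lfng, the fringe enzyme of the segmentation clock, stood at 18.8 (14.2 to 24.3) CPM in control, 19.5 (15.1 to 24.9) with iSuRe-HadCre and 11.1 (8.97 to 13.6) with iSuRe-Cre in heart. The liver groups lay between 19.5 and 23.1 CPM and overlapped. iSuRe-Cre heart was the low group, at 0.592 (0.422 to 0.839) of control heart, and did not pass 2-fold. Rfng was sparse, with 4 to 42 UMIs per group and levels of 3.47 to 9.55 CPM, below its free RNA level of 9.75. No order of the Rfng groups could be read at this depth.

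Mib1, the ligase that marks ligands for endocytosis, was found in 47.6% to 64.5% of the cells of the 6 groups. In heart it measured 111 (99.4 to 123) CPM in control, 114 (103 to 126) with iSuRe-HadCre and 76.7 (70.9 to 82.9) with iSuRe-Cre. In liver it lay at 105, 90.1 and 110.4 CPM in the same order, and the intervals overlapped. iSuRe-Cre heart was the lowest of the 6 groups, at 0.692 (0.605 to 0.792) of control heart. Its level in free RNA, 127 CPM, was above that of all 6 groups, and its part in these levels was not tested.

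Counted together, 2 of the 7 members with at least 50 UMIs in the groups compared were 2-fold or more lower with iSuRe-Cre than in control heart, and none was higher. Of all 10685 genes with as many UMIs, 2.4% were lower and 4.69% higher by 2-fold or more. The members lower were Dll4 and Jag1, and the median log2 ratio was −0.54 over the 7 members and −0.06 over all genes. In liver, 4 of 8 members were lower by 2-fold in iSuRe-Cre than in control and none was higher, where 5.87% of all 11197 genes were lower and 7.39% higher. They were Dll4, Jag1, Jag2 and Rfng, the last with only 8 UMIs in control liver and a ratio of 0.429 (0.199 to 1.06), and the medians were −0.66 over the members and −0.07 over all genes.

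Against control, Dll1 was the only member with enough UMIs that was past 2-fold with iSuRe-HadCre in either organ. It was 1 of 7 members with enough UMIs in heart, where 4.89% of 9711 genes were higher and 0.597% lower by 2-fold, and 1 of 6 in liver, where 1.88% of 6060 genes were higher and 2.16% lower. The median log2 ratio of the members was 0.04 in heart and −0.09 in liver, beside 0.13 and 0.01 over all genes. Under 10 of 13 alternatives no member was called in liver, and in 8 of these the Dll1 ratio was still 2 or more but on fewer than 50 UMIs. The share of all genes past 2-fold was not computed under the alternatives. The comparisons with control share the control cells of their organ, so they are not independent of each other.

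**Figure D2:**
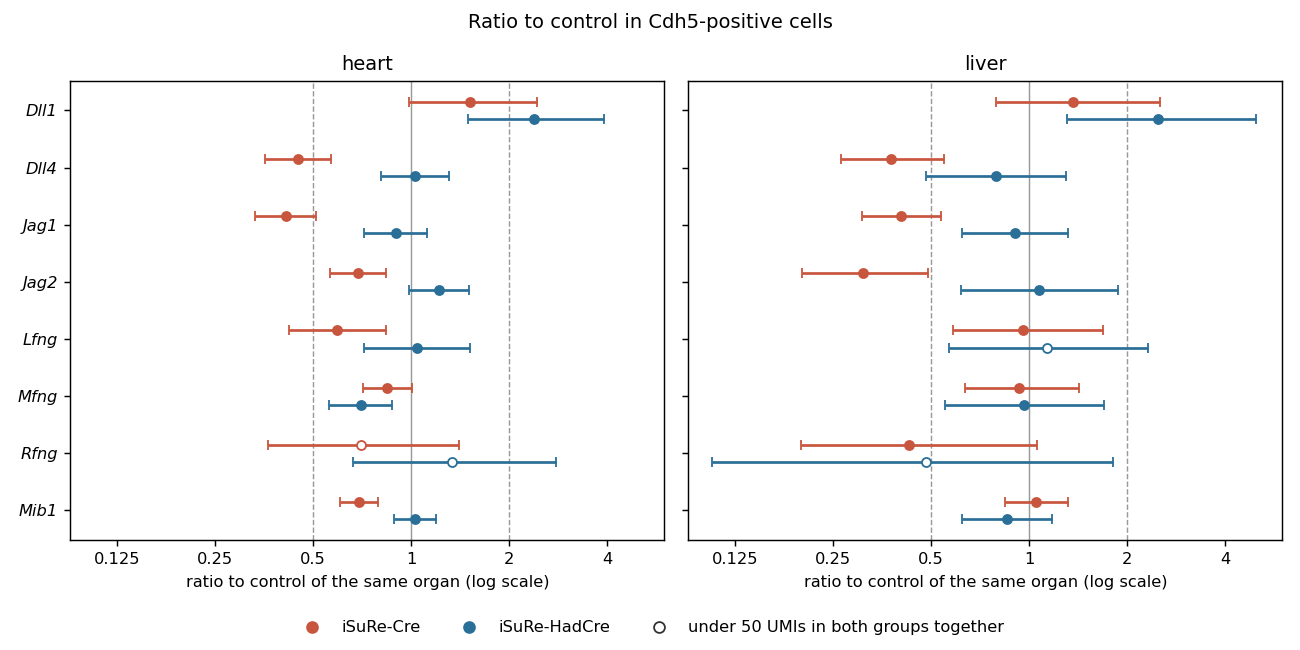
Ratio of each gene's level in iSuRe-Cre and iSuRe-HadCre cells to control cells of the same organ (horizontal log axis, no unit), with exact 95% counting intervals, for heart and liver. Open circles have under 50 UMIs in the compared groups together. Dll4 and Jag1 lie left of 0.5 for iSuRe-Cre in both organs, and Dll1 right of 2 for iSuRe-HadCre in both.

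The alleles were also compared with each other, without the control cells. In heart, the ratio of iSuRe-HadCre to iSuRe-Cre was 2.29 (1.83 to 2.87) for Dll4 and 2.17 (1.75 to 2.70) for Jag1, which made 2 of 8 members higher by 2-fold and 0 lower. Of 10909 genes, 6.34% were higher and 2.29% lower. In liver the ratio was 2.10 (1.40 to 3.08) for Dll4, 2.25 (1.67 to 2.97) for Jag1 and 3.48 (2.24 to 5.28) for Jag2, so 3 of 7 members were higher and 0 lower, where 4.8% of 11189 genes were higher and 6.33% lower. The medians of the log2 ratio were 0.82 over the members and 0.21 over all genes in heart, and 0.87 and 0.04 in liver.

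Some of these calls depended on which cells entered. With iSuRe cells restricted to those with the reporter sequence WPRE above the methods' limit, which kept 145 of 437 iSuRe-Cre heart cells, Dll4 with iSuRe-Cre was at 0.571 of control heart and no longer past 2-fold. Between the alleles in heart, the ratio of iSuRe-HadCre to iSuRe-Cre was 1.84 for Dll4 and 1.81 for Jag1 with that restriction, and 1.94 and 1.84 with sums scaled by median-of-ratios size factors, all just under 2-fold and within the counting intervals above. Without the Cdh5 criterion, the liver ratio between the alleles was 1.36 for Dll4 and 1.62 for Jag1.

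The livers differed in their mix of ECs. Cells of the Stab2 gate, which marks scavenging sinusoidal endothelium, were 50.7% of iSuRe-Cre liver, 14.3% of iSuRe-HadCre liver and 1.64% of control liver, and cells of the Gja5 and Vwf gate were 2.77%, 5.95% and 23.0% in the same order. Npr3 gate cells made up 1.22%, 2.38% and 19.7%, and Tcf15 and Fabp4 gate cells 4.10%, 11.9% and 16.4%. The list of C1q and other macrophage genes summed to 112 CPM in control, 259 with iSuRe-HadCre and 912 with iSuRe-Cre, and its part in the results was not tested. Within iSuRe-Cre liver, the 431 cells of the Stab2 gate and no other differed in their ligands from the 445 cells outside it. Dll4 was at 23.1 CPM in the Stab2 cells and 11.3 in the others, a ratio of 2.05 (1.46 to 2.90), whereas Jag1 was at 9.80 and 48.0, a ratio of 0.204 (0.148 to 0.278). Jag2 had a ratio of 0.200 (0.111 to 0.342), Dll1 of 0.553 (0.414 to 0.735) and Mib1 of 1.51 (1.33 to 1.72). Without the Stab2 cells, the liver ratio of iSuRe-Cre to control was 0.260 (0.166 to 0.410) for Dll4, 0.663 (0.496 to 0.898) for Jag1 and 0.502 (0.319 to 0.812) for Jag2, so Dll4 lay further from control and Jag1 and Jag2 no longer passed 2-fold. Without the Gja5 and Vwf cells, of which control liver held 14 of 61, the Dll4 ratio was 0.591 and no longer past 2-fold.

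The hearts differed in their mix as well. Npr3 gate cells were 3.14% of control, 3.13% of iSuRe-HadCre and 9.61% of iSuRe-Cre heart. Tcf15 and Fabp4 gate cells were 54.9%, 41.1% and 58.1% in the same order. In heart the same question could be put to cells of 1 gate. Tcf15 and Fabp4, a transcription factor and a fatty acid carrier of heart capillaries, gated 137 control, 128 iSuRe-HadCre and 250 iSuRe-Cre heart cells. Among them Dll4 stood at 46.8 CPM in control, 54.3 with iSuRe-HadCre and 20.9 with iSuRe-Cre, and the ratios to control were 1.16 (0.833 to 1.61) and 0.447 (0.334 to 0.599). Jag1 stood at 31.0, 30.2 and 11.6 CPM, with ratios of 0.974 (0.631 to 1.49) and 0.374 (0.256 to 0.546). The ratios of Dll4 and Jag1 for iSuRe-Cre were thus as low within this gate as over all heart ECs. The Dll1 ratio of iSuRe-HadCre was not kept, at 1.01 (0.438 to 2.23) on 12 and 17 UMIs. Mfng with iSuRe-HadCre was at 0.667 (0.490 to 0.899) of control within the gate, and Mib1 with iSuRe-Cre at 0.651 (0.548 to 0.775). The median depth of the gated cells was 11150 UMIs in control, 7857.5 with iSuRe-HadCre and 19801.5 with iSuRe-Cre, and the part of depth, of free RNA and of the lymphatic markers in these differences was not tested.

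Across all passing barcodes, hashed or not, the UMIs of the ligand genes lay mostly in barcodes with at least 1 Cdh5 UMI. Such a barcode need not be endothelial. Cdh5 stood at 280 CPM in free RNA, and a Cdh5 UMI was found in 35.4% of the Alb and Apoa1 cells. Cdh5-positive barcodes held 51.3% of all gene UMIs, and they held 93.5% of the Dll4 UMIs, 83.1% of Jag2, 77.9% of Mfng, 72.4% of Dll1, 71.0% of Lfng and 67.7% of Jag1. Mib1, at 56.7%, and Rfng, at 46.9%, were near the share of all UMIs. The classes are barcodes that passed the UMI limits of 1 gate only, and the 15 classes with at least 15 cells are compared here. At least 3 of the 5 markers set to check each class were over 2-fold above the ungated barcodes, all 5 in 13 of the 15 classes, 4 of 5 in the Fabp7 and Hes5 cells and 3 of 5 in the Ngp and Camp cells. At most 5.17% of the cells had a hashtag call in 9 of the 11 non-endothelial classes, so the organ and genotype of most of these cells are not known from the labels. The sources describe sorted ECs of heart and liver, and where cells such as those of the Col2a1 class came from is not known. Among the ECs, 33.7% of the Npr3 and 46.8% of the Gja5 and Vwf class had a hashtag call. The organ and genotype of the rest are not known.

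The Gja5 and Vwf class, named for a gap junction protein of arteries and the von Willebrand factor of large vessels, had the highest level of all 4 ligands among the 15 classes. Its 47 cells stood at 94.0 (70.4 to 123) CPM for Dll1, 56.7 (38.8 to 80.1) for Dll4, 181 (147 to 219.5) for Jag1 and 108 (82.7 to 139) for Jag2. The next classes were Npr3 ECs for Dll1, at 33.5, the Tcf15 and Fabp4 ECs for Dll4 and Jag2, at 31.7 and 41.4, and Myh11 cells for Jag1, at 78.3. All 4 steps from the first to the next class were larger than counting error.

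Against the 889 Tcf15 and Fabp4 ECs, the Gja5 and Vwf class had ratios of 10.2 (7.27 to 14.2) for Dll1, 8.08 (6.40 to 10.1) for Jag1, 2.61 (1.97 to 3.40) for Jag2 and 1.79 (1.21 to 2.57) for Dll4. Thus 3 of 8 members were higher by 2-fold and 0 lower, where 9.14% of 11150 genes were higher and 10.6% lower, and the median log2 ratio was 0.68 over the members and 0.08 over all genes. The modifiers differed less, with 1.43 (0.729 to 2.56) for Lfng, 1.25 (0.891 to 1.70) for Mfng and 1.25 (0.956 to 1.62) for Mib1. The ratio of Jag2 rested on the UMI limits of the gates: with the limits doubled, which left 26 and 397 cells, it was 0.897, and with endothelial barcodes of more than 1 gate kept it was 1.41. The ratio of Dll1 was 8.08 to 11.7 and that of Jag1 5.15 to 7.65 under the 4 alternatives. Hashtagged cells of the Gja5 and Vwf class came from heart in 31.8% of cases, and those of the Tcf15 and Fabp4 class in 92.8%, so for the hashtagged cells class and organ cannot be told apart. The classes also pool genotypes. Hashtagged heart cells of the Tcf15 and Fabp4 class were 137 control, 128 iSuRe-HadCre and 250 iSuRe-Cre cells. Among them Dll4 stood at 46.8 CPM in control and 20.9 with iSuRe-Cre, and the part of genotype in the class ratios was not tested.

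**Figure D3:**
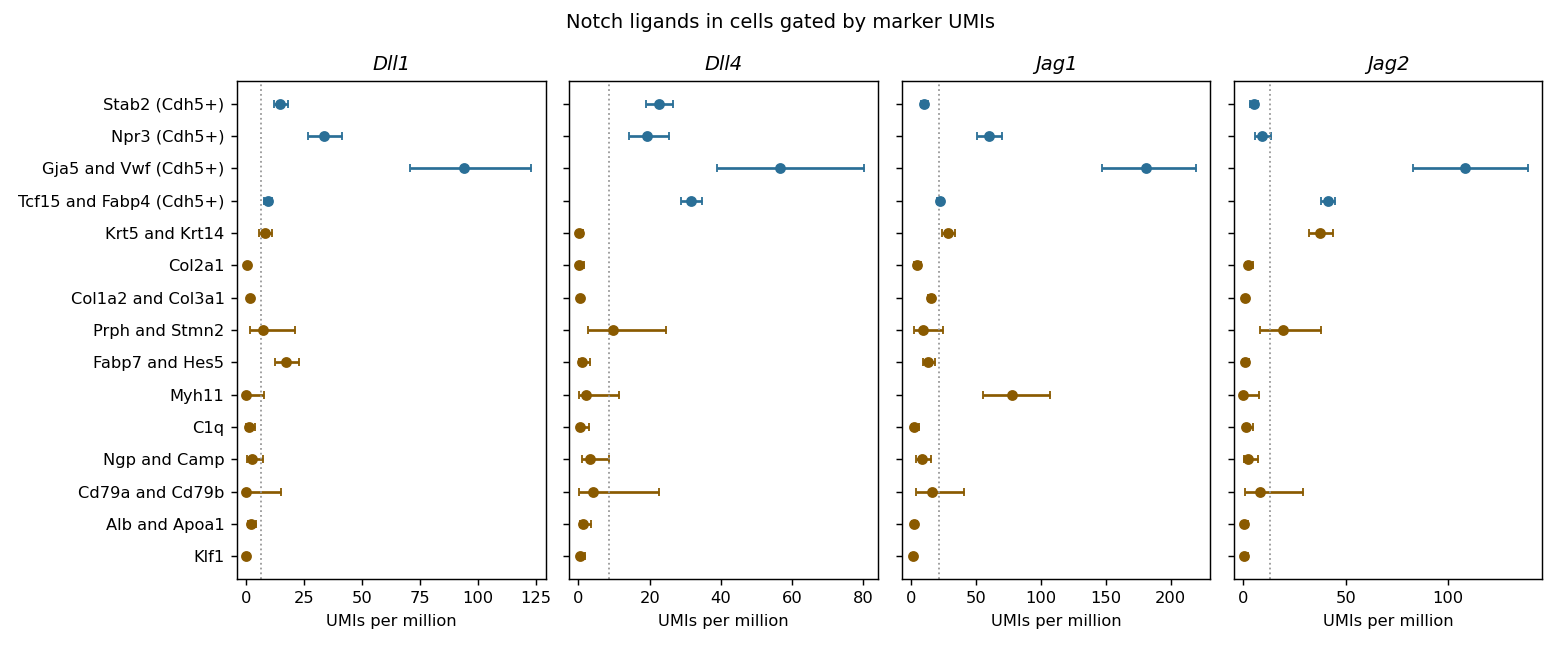
Levels of the 4 ligand genes in CPM (horizontal axis) in the 15 classes gated by marker UMIs, with exact 95% counting intervals and the free RNA level as a dotted line. The Gja5 and Vwf class is highest in every panel, and Dll4 is at 9.62 or less outside the 4 endothelial classes, where Jag1 and Jag2 still reach 78.3 in Myh11 and 37.6 in Krt5 and Krt14 cells.

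The endothelial classes differed in each ligand. Jag2 was at 41.4 CPM in Tcf15 and Fabp4 ECs, 9.07 in Npr3 ECs and 5.19 in Stab2 ECs, and Jag1 in the same order at 22.4, 60.0 and 10.5. Npr3, a natriuretic peptide receptor of the endocardium, thus marked ECs with more Jag1 and less Jag2 than the Tcf15 and Fabp4 class. Dll1 was at 9.20 in Tcf15 and Fabp4, 33.5 in Npr3 and 14.8 in Stab2 ECs, and Dll4 at 31.7, 19.3 and 22.5, where the last values did not differ beyond counting error. Stab2 ECs were below the free RNA levels of Jag2 (13.0 CPM) and Jag1 (21.7 CPM), and above that of Dll4 (8.67 CPM). Of the 441 Stab2 ECs with a hashtag call, 431 came from iSuRe-Cre liver, so this class and that genotype cannot be told apart.

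Outside endothelium, Dll4 was at or near the level of free RNA or below it. The 11 non-endothelial classes held 1 to 5 Dll4 UMIs each, with levels of 0.228 to 9.62 CPM. Among the larger classes, Krt5 and Krt14 cells had 1 UMI in 174 cells and Col1a2 and Col3a1 cells 5 in 690. Jag1 was found in Myh11 cells, which carry smooth muscle myosin, at 78.3 (55.4 to 107) CPM, where Dll1 and Jag2 had 0 UMIs in 29 cells, with an exact upper limit of 7.60 CPM. Jag2 was at 37.6 (32.1 to 43.8) CPM in Krt5 and Krt14 cells, which carry basal keratins, a level that did not differ beyond counting error from that of Tcf15 and Fabp4 ECs. A Jag2 UMI was found in 56.9% of these keratin cells at a median of 23491.5 UMIs (7.38% thinned), in 38.9% of the Tcf15 and Fabp4 ECs at 12534 UMIs (9.05% thinned) and in 0 of the Myh11 cells at 16879 UMIs. Dll1 was at 17.1 (12.6 to 22.7) CPM in Fabp7 and Hes5 cells, a class with genes of neural progenitors and glia. Klf1 cells, which carry an erythroid factor, held 7 UMIs of all 4 ligand genes in 57 cells at a median of 51574 UMIs.

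The fringe genes had other orders of classes. Lfng was highest in Cd79a and Cd79b cells, which carry B cell receptor genes, at 28.3 (11.4 to 58.3) CPM on 7 UMIs, and in Fabp7 and Hes5 cells, at 26.4 (20.7 to 33.1). It was at 21.3 in the Gja5 and Vwf, 20.9 in the Stab2 and 19.4 in the C1q class of macrophage genes, and none of these 5 neighbours in the order differed beyond counting error. Mfng was highest in the Gja5 and Vwf class, at 74.5, and the Tcf15 and Fabp4 class, at 59.8, and stood at 0.456 in Krt5 and Krt14 cells. Myh11 cells had 0 UMIs of Lfng and of Mfng. Rfng ranged from 2.00 to 12 and no class differed from the next in order beyond counting error. Mib1 ran from 23.7 in Klf1 cells to 124 in Stab2 ECs, with 4 of the 5 highest classes endothelial, and neighbours in its order did not differ beyond counting error.

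**Figure D4:**
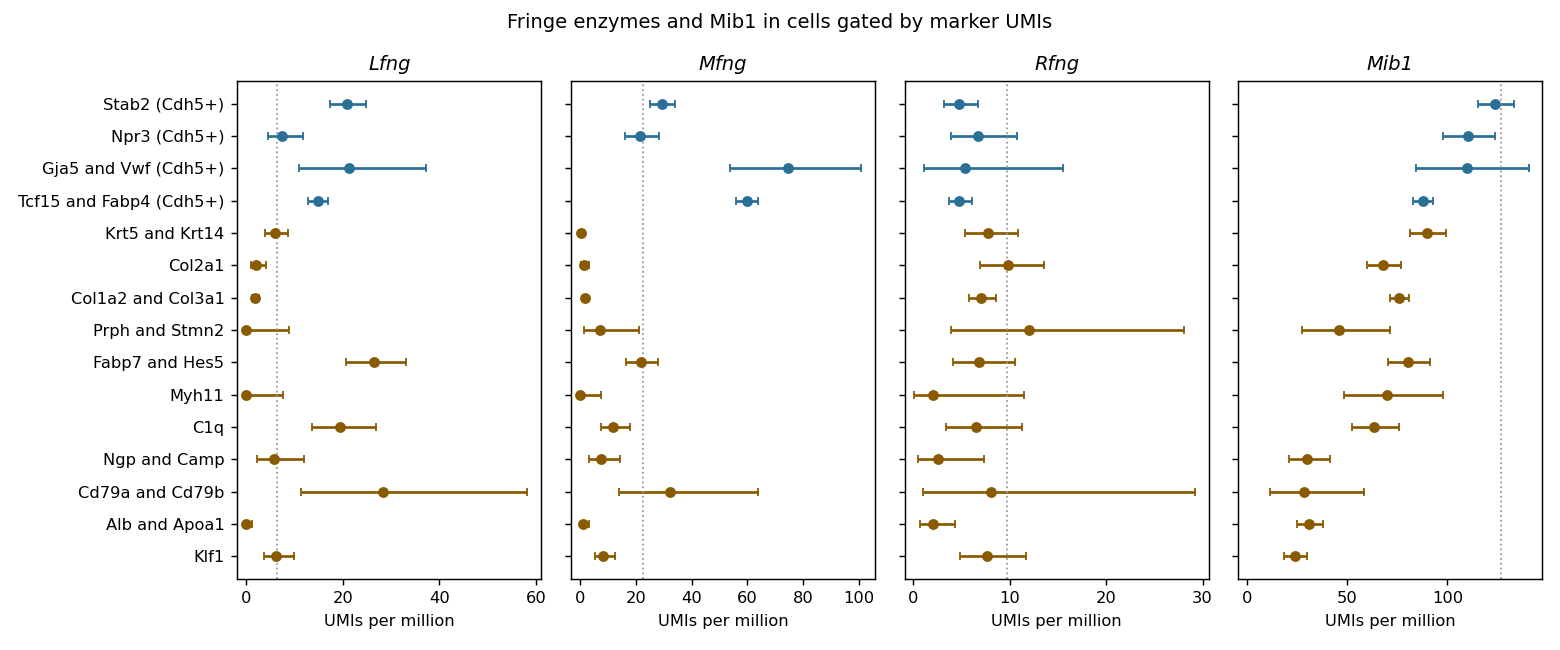
Levels of Lfng, Mfng, Rfng and Mib1 in CPM (horizontal axis) in the same 15 classes, with exact 95% counting intervals and the free RNA level as a dotted line. Mfng is highest in the Gja5 and Vwf and the Tcf15 and Fabp4 classes (74.5 and 59.8), while Rfng stays between 2.00 and 12.

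Over the 15 classes, the genes whose log2 level was most like that of a member were found among 12174 genes by Pearson's r. They were Rasip1 (r = 0.96), Myzap (0.96) and Ecscr (0.95) for Dll4, and Olfml2a (0.91), Eln (0.91) and Zfp229 (0.90) for Jag1. For Jag2 they were Notch4 (0.84), Klf11 (0.83) and Cyb561 (0.83), and for Dll1 Ntn4 (0.93), Sox13 (0.91) and Samd12 (0.90). For the fringe genes they were Pcgf5 (0.88), Traf6 (0.88) and Ogg1 (0.86) with Lfng and Tmem127 (0.91), Gimap1 (0.89) and Rapgef1 (0.89) with Mfng. Among the members themselves the closest pairs were Dll4 with Mfng (0.82), Dll1 with Dll4 (0.80) and Lfng with Mfng (0.80). All points share 1 library and differ in depth, and these values describe the classes and test nothing.

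The cells that carried Dll4 differed from those that did not, and not in the same genes in each heart group. A Dll4 UMI was present in 92 of 255 control, 103 of 319 iSuRe-HadCre and 123 of 437 iSuRe-Cre heart ECs. In control heart, Gja5 stood at 41.4 CPM in the cells with and 6.55 CPM in those without Dll4, a ratio of 6.33 (3.32 to 13.1). The same ratio was 1.58 (0.980 to 2.55) with iSuRe-HadCre and 0.390 (0.0965 to 1.17) with iSuRe-Cre, the last on 4 and 19 UMIs. Gja4, another arterial gap junction gene, had ratios of 2.75 (2.21 to 3.44) in control, 0.875 (0.682 to 1.12) with iSuRe-HadCre and 0.667 (0.521 to 0.848) with iSuRe-Cre. For Fbln5, an elastic fibre gene, the ratios were 2.20 (1.64 to 2.97), 0.857 (0.648 to 1.13) and 0.341 (0.252 to 0.455) in that order, for the kinase gene Bmx 2.16 (1.40 to 3.36), 0.854 (0.497 to 1.43) and 0.501 (0.344 to 0.714), and for Hey1 1.52 (1.09 to 2.12), 1.20 (0.871 to 1.63) and 0.685 (0.423 to 1.08). Sox17, a transcription factor of arteries, stayed within counting error of 1 in all 3 groups, at 1.06 (0.906 to 1.24), 0.880 (0.741 to 1.04) and 0.892 (0.776 to 1.02). Some of these ratios rested on 1 cell. Without the cell that held the most UMIs of the gene, control heart gave 5.14 (2.64 to 10.8) for Gja5 and 2.51 (2.00 to 3.15) for Gja4, but 1.58 (0.985 to 2.54) for Bmx, 1.35 (0.964 to 1.88) for Fbln5 and 1.35 (0.956 to 1.90) for Hey1. With iSuRe-Cre the same step gave 0.817 (0.184 to 2.93) for Gja5, 0.702 (0.547 to 0.894) for Gja4, 0.291 (0.179 to 0.453) for Bmx and 0.429 (0.315 to 0.576) for Fbln5. With iSuRe-HadCre it gave 2.59 (1.51 to 4.52) for Gja5 and 0.636 (0.464 to 0.862) for Fbln5. In CPM, Gja5 and Gja4 were thus higher with Dll4 in control heart with and without that cell, and Gja4, Bmx and Fbln5 lower with Dll4 in iSuRe-Cre heart, but the differences between groups were not tested. In iSuRe-Cre heart the share of cells with a Fbln5 UMI was not lower with Dll4, at 22.8% against 18.8% without. For Gja4 these shares were 17.1% and 24.2%, and for Bmx 11.4% and 13.7%. They were not thinned, and the cells with Dll4 were deeper.

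The livers gave other values for the same 6 genes. In control liver, with a Dll4 UMI in 21 of 61 cells, Gja5 was at 8.71 (4.27 to 20.1) and Sox17 at 1.65 (1.11 to 2.45), and the other 4 were within counting error of 1. In iSuRe-Cre liver, with 146 of 903 cells, Hey1 was at 3.08 (1.65 to 5.63), Sox17 at 1.71 (1.46 to 2.00) and Gja5 at 1.52 (1.00 to 2.25), all higher with Dll4, while Bmx was at 0.677 (0.473 to 0.946) and Fbln5 at 0.635 (0.510 to 0.783). In iSuRe-HadCre liver, with 19 of 84 cells, Hey1 was at 2.98 (1.32 to 6.74), Gja4 at 1.90 (1.24 to 2.89) and Sox17 at 1.80 (1.29 to 2.50). Gja4 in iSuRe-Cre liver was at 1.21 (0.942 to 1.55), on the other side of 1 from iSuRe-Cre heart, and the difference between the organs was not tested. Some liver ratios also changed without the cell with the most UMIs of the gene. In iSuRe-HadCre liver Sox17 was then at 0.970 (0.623 to 1.47) and Fbln5 at 1.88 (1.33 to 2.66). Control liver gave 1.80 (1.09 to 2.98) for Gja4. In iSuRe-Cre liver Bmx was at 0.744 (0.519 to 1.04) and Gja4 at 1.32 (1.02 to 1.68). The other ratios given with values above stayed beyond counting error on the same side of 1. Cdh5 itself was at 1.16 (0.997 to 1.36) in control, 1.73 (1.47 to 2.04) in iSuRe-HadCre and 1.25 (1.18 to 1.33) in iSuRe-Cre liver. In heart it was at 1.19 (1.12 to 1.27), 1.32 (1.24 to 1.41) and 0.940 (0.897 to 0.984) in that order. The Gja4 and Sox17 ratios of iSuRe-HadCre liver were thus near that of Cdh5, and the part of the Cdh5 level in these ratios was not tested.

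Tip cell genes were listed as well. In heart, Cxcr4, a chemokine receptor of tip cells, had ratios of 3.16 (1.53 to 6.91) in control, 1.47 (0.761 to 2.80) with iSuRe-HadCre and 3.50 (1.48 to 8.91) with iSuRe-Cre, and Esm1, a secreted proteoglycan, of 2.60 (1.29 to 5.44), 0.825 (0.186 to 2.96) and 4.26 (1.95 to 10.0) in that order. Apln, a peptide ligand, was at 1.25 (0.979 to 1.60), 1.43 (1.12 to 1.80) and 1.66 (1.47 to 1.87), Angpt2 at 1.25 (0.686 to 2.25), 1.21 (0.618 to 2.32) and 1.15 (0.803 to 1.63) and Pgf at 2.22 (1.04 to 4.89), 0.232 (0.00523 to 1.73) and 1.57 (0.847 to 2.88). In control heart, 1 cell with Dll4 held 17 of the Esm1 UMIs and 1 cell with Dll4 held 13 of the Pgf UMIs, and without these cells the ratios were 0.769 (0.263 to 2.04) and 0.712 (0.222 to 2.01). Cxcr4, Esm1 and Apln were higher with Dll4 by more than counting error in iSuRe-Cre heart, also without the highest cell of each, at 2.93 (1.18 to 7.67), 3.54 (1.57 to 8.53) and 1.58 (1.40 to 1.78). Among the members, Jag2 was at 1.34 (0.962 to 1.85), 1.28 (0.961 to 1.70) and 1.25 (0.984 to 1.59), Jag1 at 0.992 (0.712 to 1.37), 1.62 (1.17 to 2.23) and 0.635 (0.446 to 0.891) and Mfng at 1.69 (1.26 to 2.27), 1.08 (0.755 to 1.53) and 1.14 (0.935 to 1.39). Cells with a Dll4 UMI were deeper, with medians of 10483 against 8324 UMIs in control, 8733 against 6947 with iSuRe-HadCre and 21003 against 14834.5 with iSuRe-Cre, and cells are not replicates of a group.

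**Figure D5:**
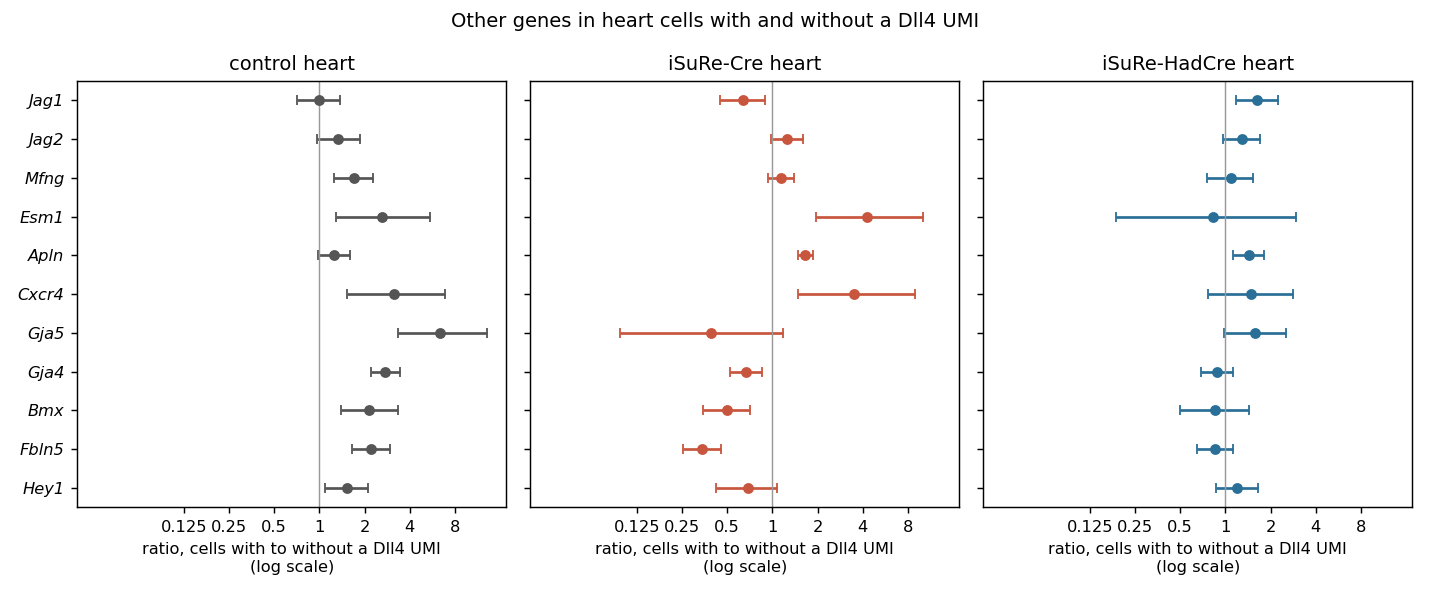
Ratio of the level of other genes in heart cells with a Dll4 UMI to heart cells without one (horizontal log axis, no unit), in the 3 heart groups, with exact 95% counting intervals. Gja5, Gja4, Bmx and Fbln5 lie right of 1 in control heart and left of 1 in iSuRe-Cre heart. Gja5 is at 6.33 in control heart and 0.390 in iSuRe-Cre heart, where its interval of 0.0965 to 1.17 spans 1.

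The other 46 Notch pathway genes listed were other ligand genes and ligand ubiquitin ligases, receptors, glycosylation and cleavage enzymes, the nuclear complex, receptor turnover and targets. Against control heart, 1 was higher and 4 lower by 2-fold with iSuRe-Cre among the 35 with enough UMIs, and 0 higher and 1 lower with iSuRe-HadCre among 33. Of all genes with enough UMIs, 4.69% were higher and 2.4% lower with iSuRe-Cre, and 4.89% higher and 0.597% lower with iSuRe-HadCre. Against control liver, 2 were higher and 6 lower with iSuRe-Cre among 38, and 0 higher and 1 lower with iSuRe-HadCre among 23, where 7.39% and 5.87% of all genes were higher and lower with iSuRe-Cre and 1.88% and 2.16% with iSuRe-HadCre. Notch1 was the gene past 2-fold with both alleles in each organ. In heart it was at 0.171 (0.132 to 0.218) of control with iSuRe-HadCre and 0.0940 (0.0754 to 0.116) with iSuRe-Cre, and in liver at 0.234 (0.15 to 0.353) and 0.151 (0.121 to 0.190). Between the alleles, 3 of 35 genes had a ratio of iSuRe-HadCre to iSuRe-Cre of 2 or more in heart and 4 of 38 in liver, with 0 lower in either, where 6.34% and 4.8% of all genes were higher. Those 3 were Notch2, Notch4 and Hey1, and those 4 were Notch3, Notch4, Eogt and Hey1, named here after their values were seen. Of the 6 target genes listed, Hey1, Hes1 and Nrarp had enough UMIs in each comparison with control heart, and Hes5, Hey2 and Heyl did not. With iSuRe-Cre, Hey1 stood at 0.239 (0.184 to 0.310) of control heart, Hes1 at 0.458 (0.416 to 0.505) and Nrarp, a feedback inhibitor of the pathway, at 0.998 (0.826 to 1.21). With iSuRe-HadCre they stood at 1.06 (0.847 to 1.32), 0.790 (0.710 to 0.879) and 0.980 (0.781 to 1.23). In liver, iSuRe-Cre was at 0.154 (0.0939 to 0.258) of control for Hey1, 0.479 (0.399 to 0.578) for Hes1 and 0.514 (0.379 to 0.710) for Nrarp. The targets thus did not move alike: in iSuRe-Cre heart, where Dll4, Jag1 and Notch1 were low, Hey1 and Hes1 were past 2-fold and Nrarp was within counting error of control. Of the other receptor genes in iSuRe-Cre heart, Notch4 was at 0.0776 (0.0509 to 0.115) of control, Notch2 at 0.863 (0.604 to 1.25) and Notch3 at 3.87 (1.69 to 10.9), the last on 6 UMIs in control. Notch4 with iSuRe-HadCre was at 1.03 (0.822 to 1.30). The part of ligands and receptors in the target levels was not tested.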

How the data were processed

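The library was a 10x Genomics droplet library of sorted cells with hashtag antibodies. The authors deposited raw UMI counts per gene and hashtag for 2755147 barcodes, made with Cell Ranger 7.1.0 on GRCm38 with Ensembl 98 genes and transgene sequences. These counts were used as deposited. The members and lists were chosen with earlier results of these data known. Barcodes with 2000 to 75000 gene UMIs (24101), more than 500 genes (24061), and mitochondrial and haemoglobin shares below 5% (23221, then 14350) were kept. A hashtag was called from 25 UMIs, or 140 for hashtag 302, with the other tags below their minimum. 2391 barcodes had 1 call and 11773 none, and 186 with more than 1 call were left out as doublets; no doublet caller was run. A class needed the UMI limits of its gate genes, set from those genes alone, and 182 of 3444 gated barcodes in more than 1 gate were left out. Non-endothelial classes held at most 1 Cdh5 UMI per cell. Free RNA was taken from 24194 barcodes of 10 to 100 UMIs (922778 UMIs).

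Summed UMIs per 1000000 gene UMIs (CPM) carry exact Poisson intervals, their ratios exact conditional intervals and shares exact binomial intervals, at the 95% level. A gene was called at 2-fold or more, given at least 50 UMIs in the groups compared. Thinned shares are expected values at 2000 UMIs per cell. Named were all members, other pathway genes past 2-fold in both iSuRe groups of an organ, and for 6 members the 3 genes with the highest Pearson correlation of log2(CPM + 10) over the classes, among genes with at least 200 UMIs; other names were chosen after their values were seen. The alternatives were other Cdh5, hashtag, reporter (WPRE) and mitochondrial criteria, size factors, per-cell means, subtracted free RNA, and cells of a gate left out or taken alone. Leaving out the Stab2 gate or cells with an unassigned hashtag, taking the Tcf15 and Fabp4 gate alone, keeping barcodes of more than 1 gate, taking only barcodes without a hashtag call and leaving out the cell with the most UMIs of a gene were chosen after seeing the data. Intervals and ratios were tested on simulated data. Python 3.11.15, numpy 2.4.6, scipy 1.17.1 and matplotlib 3.10.9 were used.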

Additional observations from a re-analysis of the deposited data

Results flagged for a closer look

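The hashtag counts held UMIs of 2 antibodies to which the labels give no group. At least 25 UMIs of hashtag 304 were found in 378 of the 14350 passing barcodes (2.63%) and of hashtag 308 in 766 (5.34%). There was no control sample to set beside them, and whether they are labelled cells or hashtag background was not tested. Of the 2059 hashed Cdh5-positive cells, 38 carried hashtag 304 and 96 hashtag 308 at that level. The members were not compared in these barcodes as groups.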

How the results depend on the processing

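Depth and the lack of replicates limit these values: Rfng in all 6 groups, Dll1 in control heart, and Dll1, Dll4, Jag2, Lfng and Mfng in control and iSuRe-HadCre liver rest on fewer than 50 UMIs per group. No paired analysis was possible because each group is 1 sample and the result comes from no test. Among the alternative values of the group ratios, 590 stayed within the counting interval of the reported value and 34 moved, and among those of the class ratios 26 stayed, 5 moved and 1 reversed. Jag1 in iSuRe-Cre against control heart was 0.328 with 25 UMIs as the minimum of every hashtag and 0.299 as a mean of per-cell levels, and in iSuRe-HadCre against control heart 0.690 and 0.711. With the WPRE criterion, Dll4 in iSuRe-Cre against control heart was 0.571 and the members past 2-fold were 1 there and 0 for iSuRe-HadCre against iSuRe-Cre heart. That last count was also 0 with size factors, 1 without the Cdh5 criterion and 5 with per-cell means. The share of all genes past 2-fold was computed for the reported setting only, so none of the counts under the alternatives can be read against it. For iSuRe-HadCre against control heart the count was 0 with the highest hashtag at 3 times the next and within the Tcf15 and Fabp4 gate. For iSuRe-Cre against control liver it was 2 with 25 UMIs for every hashtag, with the highest hashtag at 3 times the next and without the Gja5 and Vwf gate, and 1 without the Stab2 gate. Without the Gja5 and Vwf gate, Dll4 against control liver was 0.591 with iSuRe-Cre and 1.32 with iSuRe-HadCre. Without the Stab2 gate, iSuRe-Cre against control liver gave 0.260 for Dll4 and 0.663 for Jag1, and iSuRe-HadCre against iSuRe-Cre liver gave 3.47 and 1.36. Without the Cdh5 criterion the latter were 1.36 and 1.62, and the count of members was 1, as it was with a hashtag minimum of 50 UMIs. For iSuRe-HadCre against control liver the count was 0 under 10 of 13 alternatives, in 8 of which the Dll1 ratio was still 2 or more but rested on fewer than 50 UMIs. These were the 2 other Cdh5 criteria, 3 other hashtag criteria, the WPRE criterion, per-cell means, and leaving out the Gja5 and Vwf gate, the Stab2 gate or cells with an unassigned hashtag. In the Gja5 and Vwf against the Tcf15 and Fabp4 class, Jag1 was 5.15 and Jag2 3.60 in barcodes without a hashtag call, and Jag2 1.41 with barcodes in more than 1 gate kept and 0.897, reversed, with the UMI limits doubled. Without the cell with the most UMIs of the gene, a setting chosen after seeing the data, the ratio between heart control cells with and without a Dll4 UMI reversed to 0.769 for Esm1 and 0.712 for Pgf, and in iSuRe-HadCre liver Pgf went to 0, since 1 cell held all 5 UMIs of the cells with Dll4, against 6 UMIs in the cells without. The causes of these moves were not tested beyond the loss of UMIs named.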

Other observations

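Among the 6104 Cdh5-positive barcodes without a hashtag call, whose organ and genotype are not known from the labels, 721 held a Dll4 UMI. Jag2 stood at 43.3 CPM in these and 17.3 in the other 5383, a ratio of 2.50 (2.18 to 2.87). The ratio was 1.75 (1.45 to 2.11) for Lfng, 1.52 (1.36 to 1.70) for Mfng, 1.32 (1.21 to 1.43) for Mib1, 1.19 (0.975 to 1.45) for Dll1 and 1.11 (0.965 to 1.27) for Jag1. Cdh5 itself, which the barcodes were chosen for, was at 2.02 (1.97 to 2.07), so barcodes with Dll4 also held more of an endothelial gene than those without. The median depths were 6656 and 4270 UMIs. The tip cell gene Esm1 was at 5.14 (3.97 to 6.65), the arterial gene Gja5 at 4.04 (3.24 to 5.02) and the Notch target Hey1 at 2.87 (2.50 to 3.30).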
